A study of Mus musculus with 18 samples.

Results

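The Cyp2c genes encode cytochrome P450 enzymes of the liver endoplasmic reticulum. They were followed here in mouse liver through 7 members, Cyp2c29, Cyp2c37, Cyp2c38, Cyp2c39, Cyp2c50, Cyp2c54 and Cyp2c55, out of 12169 genes tested. A member was a gene whose symbol stands alone in the array's platform annotation of a probe set, and each of the 7 had exactly 1 probe set. All 7 passed the filter on low signals, and each was above its array's median in all 18 arrays. The 18 Affymetrix mouse arrays each carry liver RNA of 1 female B6C3F1 mouse, a hybrid strain used in carcinogenicity bioassays. Dosing began at 5 weeks of age and lasted 13 weeks, which gives 18 weeks of age at its end.

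There were 6 groups of 3 mice. The first group ate feed with 1,5-naphthalenediamine at 2000 ppm, and the series classes this chemical as a positive liver carcinogen. Mice given 2,3-benzofuran, the other positive liver carcinogen, received 240 mg/kg by gavage. N-(1-naphthyl)ethylenediamine, given as its dihydrochloride at 2000 ppm in feed, and pentachloronitrobenzene, mixed into feed at 8187 ppm, form the negative class. The corn oil control was dosed by gavage at 5 ml/kg, and the feed control received no chemical in its feed. Gavage ran on 5 days and feeding on 7 days of each week. Each chemical was set against the control of its own route, and the 3 feed chemicals share 1 feed control. Only 1,5-naphthalenediamine and N-(1-naphthyl)ethylenediamine share both dose and route.

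P450 enzymes insert an oxygen atom into lipophilic substrates and take their electrons from P450 reductase. Those of the Cyp2c family oxidise drugs and other foreign chemicals, and several convert arachidonic and linoleic acid into epoxides and hydroxy acids. In mouse liver some of them are induced through the nuclear receptors CAR (gene Nr1i3) and PXR (gene Nr1i2), which respond to foreign compounds, while HNF4 alpha maintains expression of many P450 genes in hepatocytes. The family expanded in rodents by gene duplication, so that the mouse genes lie side by side as close copies. In the RefSeq annotation of GRCm38.p6 the 7 members lie on chromosome 19 between 39006940 and 40113955, a span of 1107 kb. That annotation lists 15 protein coding Cyp2c genes, of which 11 have a probe set naming 1 gene.

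RefSeq promoter sequences (GRCm38.p6) were matched for 6 of the 7 members, with 2 start sites for Cyp2c39. Windows of the 250 bases before the start given in the promoter table were searched and aligned. For Cyp2c55, Cyp2c29 and Cyp2c38 that start lies 79, 41 and 28 bases inside the gene as the RefSeq gene table annotates it, and for the first Cyp2c39 start, Cyp2c37 and Cyp2c50 it is the gene's first base. The second Cyp2c39 start lies well inside the gene. For 5 members the window is shown up to the annotated gene, 5′ to 3′ on the strand of the gene. They include the close copies Cyp2c29 with Cyp2c38 and Cyp2c37 with Cyp2c50, and Cyp2c55, which had the widest range of signals. Cyp2c29 and Cyp2c38 were paired after their values were seen, and Cyp2c39 is the closer copy of Cyp2c38. No difference between the genes of such a pair was tested. Capitals mark CAAAGTC, a motif of the type bound by HNF4, searched on both strands. The Cyp2c29 stretch is chr19:39286835-39287043 (plus strand) and that of Cyp2c38 is chr19:39463104-39463325 (minus strand).
Cyp2c29: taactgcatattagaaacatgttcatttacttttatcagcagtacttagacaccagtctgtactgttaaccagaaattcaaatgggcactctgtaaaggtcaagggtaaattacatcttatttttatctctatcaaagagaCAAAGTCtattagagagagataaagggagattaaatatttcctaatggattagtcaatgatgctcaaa
Cyp2c38: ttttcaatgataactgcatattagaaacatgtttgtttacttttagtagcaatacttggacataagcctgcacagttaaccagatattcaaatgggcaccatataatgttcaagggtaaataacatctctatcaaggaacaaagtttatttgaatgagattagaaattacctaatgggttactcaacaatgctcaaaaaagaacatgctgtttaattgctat
The Cyp2c37 stretch is chr19:39992174-39992423 and that of Cyp2c50 is chr19:40089429-40089678, both on the plus strand.
Cyp2c37: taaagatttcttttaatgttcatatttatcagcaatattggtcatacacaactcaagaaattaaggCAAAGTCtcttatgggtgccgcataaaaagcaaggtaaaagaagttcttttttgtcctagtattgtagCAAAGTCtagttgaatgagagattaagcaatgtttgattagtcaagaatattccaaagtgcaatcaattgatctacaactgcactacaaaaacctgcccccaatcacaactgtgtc
Cyp2c50: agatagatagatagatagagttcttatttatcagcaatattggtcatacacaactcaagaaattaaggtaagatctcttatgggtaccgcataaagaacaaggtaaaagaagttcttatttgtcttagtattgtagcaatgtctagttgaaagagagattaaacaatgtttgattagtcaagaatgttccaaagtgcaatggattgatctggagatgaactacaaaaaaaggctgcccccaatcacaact
The Cyp2c55 stretch is chr19:39006769-39006939 on the plus strand.
Cyp2c55: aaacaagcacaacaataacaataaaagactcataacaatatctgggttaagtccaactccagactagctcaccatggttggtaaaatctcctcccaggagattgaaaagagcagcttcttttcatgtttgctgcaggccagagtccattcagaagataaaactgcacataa
The Cyp2c29 and Cyp2c38 windows were identical at 82.0% of 228 aligned bases, and the Cyp2c37 and Cyp2c50 windows at 87.8% of 245. The Cyp2c39 windows, not shown, were closer to that of Cyp2c38, at 85.5% and 89.6%. To that of Cyp2c29 they had 82.3% and 81.9% identity. The Cyp2c55 window had 62.4% identity to that of Cyp2c38 at the low end and 67.9% to that of Cyp2c37 at the high end. Windows of Cyp2c29, Cyp2c38 and Cyp2c39 were in a similar range against those of Cyp2c37 and Cyp2c50. These ran from 64.3% (Cyp2c39 with Cyp2c50) to 70.9% (Cyp2c38 with Cyp2c50). CAAAGTC was found in 4 of the 7 windows, 1 time each for Cyp2c29 and both Cyp2c39 starts and 2 times for Cyp2c37, against 3.84% of 32851 promoters of the same length. The Cyp2c29 match lies 109 to 103 bases before the start in the promoter table, which is 68 to 62 bases before the annotated gene. Close copies share letters, so these windows are not independent of each other. The nuclear receptor half-site AGGTCA was in 2 member windows (Cyp2c29 and 1 of Cyp2c39), against 14.02% of all promoters, and AGTTCA in 2 (Cyp2c50 and the other of Cyp2c39), against 11.84%. Neither overlapped a CAAAGTC match. The motifs TTCNNNGAA (STAT5), TGACNNNGC (NRF2) and GCGTG (aryl hydrocarbon receptor) were in none of the 7 windows, against 7.02%, 10.16% and 28.16% of all promoters. These are letter matches and were not tested as binding sites.

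The arrays were alike in overall signal, with medians between 4.25 and 4.35 log2 units and correlations between 0.979 and 0.995. Hepatocyte markers averaged 13.7 to 14.0 on every array, while 2 to 3 of the 5 cholangiocyte markers were below the lowest array median in each group. A total of 5 arrays carried high 18S ribosomal signal, 7.93 to 11.6 against 5.94 to 6.97 on the others. They were those of 1,5-naphthalenediamine mouse 4, 2,3-benzofuran mice 6 and 10, and N-(1-naphthyl)ethylenediamine mice 12 and 14. An index of clock genes, the mean of 8 minus the mean of 3 of opposite phase, was 2.14 to 2.49 in the N-(1-naphthyl)ethylenediamine group and -1.21 to 0.62 in the feed control. Over all tested genes the median log2 change with 1,5-naphthalenediamine against its control was 0.18, that with 2,3-benzofuran 0.11, and those with N-(1-naphthyl)ethylenediamine and pentachloronitrobenzene both 0.15. Between the corn oil and feed controls it was 0.04. Changes below are therefore given relative to that median unless said otherwise, with the model's standard error, so that the median over all genes is 0. Calls rest on the deposited scale at a Benjamini-Hochberg adjusted p under 0.05 in limma. Statements on whether groups overlap describe the 3 livers of each group and are no test. The share of all tested genes without overlap is not given here, so they cannot be weighed against it. In comparisons with a control, a call of a member changed by quantile normalization or centring of the arrays is stated with it. Between chemicals such changes are given by name or as a count. Gene lists are counted on the deposited scale and after quantile normalization. In whole liver, fewer cells of a type and less RNA per cell cannot be told apart. Reads of close copies by 1 probe set were not examined, so a change of 1 member may include signal of another.

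**Figure D1:**
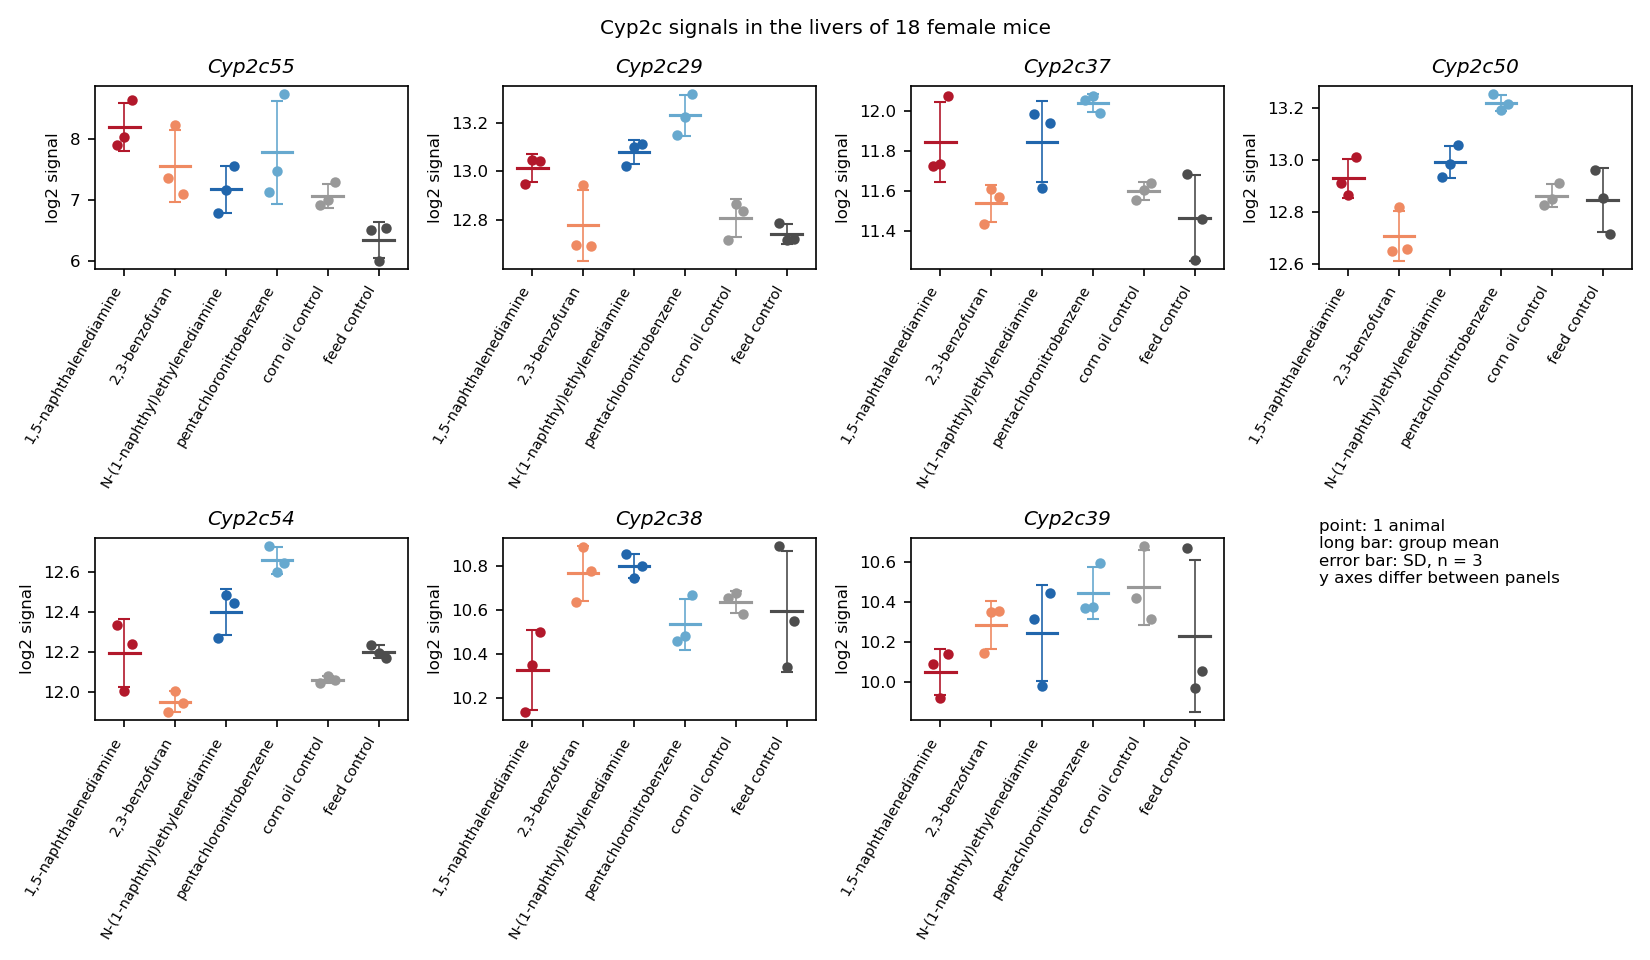
Log2 signal (y axis, its own range in each panel) of each Cyp2c gene in the 18 livers, by group (x axis), with the group mean and SD (n = 3). Cyp2c29, Cyp2c37, Cyp2c50 and Cyp2c54 have their highest group mean in the pentachloronitrobenzene livers, and Cyp2c55 spreads widely within groups, between 7.12 and 8.72 in the pentachloronitrobenzene livers.

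Most of the 7 members were called higher with pentachloronitrobenzene, a fungicide, on the deposited scale. Cyp2c29, Cyp2c37, Cyp2c50, Cyp2c54 and Cyp2c55 rose on the deposited scale and after quantile normalization, though only Cyp2c29 and Cyp2c55 also after centring of the arrays. That is 5 of 7 members, and none was called lower, where 14.6% of all tested genes were called higher and 3.87% lower. After quantile normalization 3.01% of genes were called higher. Cyp2c38 and Cyp2c39 were not called. The median relative change of the 7 members was 0.31 log2 units. Members with a mean signal over 12 changed by 0.38 to 0.49 on the deposited scale, against a median of 0.13 for the 201 genes of that range.

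Cyp2c29, an arachidonic acid epoxygenase inducible by phenobarbital, gave log2 signals of 13.15, 13.22 and 13.32 in pentachloronitrobenzene livers, against 12.79, 12.72 and 12.72 in feed control livers. The groups did not overlap. The relative change was 0.34 ± 0.07 (SE), a 1.26-fold rise (adjusted p = 0.000466, and 0.00319 after quantile normalization). Cyp2c50, which also forms fatty acid epoxides, gave 13.25, 13.19 and 13.22 with pentachloronitrobenzene, against 12.96, 12.85 and 12.72 in the feed control. All 3 treated livers stood above all 3 controls, and the relative change was 0.23 ± 0.07, or 1.17-fold (adjusted p = 0.00302, and 0.124 after centring).

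Cyp2c54, a close relative of Cyp2c50, gave 12.73, 12.60 and 12.65 in pentachloronitrobenzene livers, against 12.24, 12.20 and 12.17 in feed control livers. The lowest treated liver stood above the highest control. This gave a relative change of 0.31 ± 0.08, or 1.24-fold (adjusted p = 0.00199, and 0.0649 after centring). Cyp2c37, a mouse arachidonic acid hydroxylase induced through CAR, gave 12.06, 12.08 and 11.99 with pentachloronitrobenzene, against 11.68, 11.25 and 11.46 in the feed control. Here too the groups were apart, and the treated livers lay close together, with a mean of 12.04 ± 0.04 (SD), against 11.47 ± 0.22 in the controls. Its relative change was 0.43 ± 0.11, or 1.35-fold (adjusted p = 0.00524, and 0.0514 after centring).

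Cyp2c55, best known from the intestine and inducible in mouse liver by CAR and PXR activators, gave 7.12, 7.48 and 8.72 with pentachloronitrobenzene. The feed control livers gave 6.50, 6.01 and 6.54. The groups were apart, but mouse 20 stood well above the other 2 treated mice. The relative change was 1.27 ± 0.34, or 2.42-fold (adjusted p = 0.012, and 0.0482 after quantile normalization). Mouse 20 also had a clock index of 1.02, against -1.45 and -1.07 in the other 2 treated mice, and the part of this in the Cyp2c55 value was not tested. Each of the 5 calls held when any single array of the 2 groups was left out, and the count was then 5 or 6. Fitted with only these 2 groups, 3 members were called, and Cyp2c50 and Cyp2c55 each had an adjusted p of 0.0512.

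Cyp2c38, a P450 of the same duplicated block as Cyp2c29, gave 10.46, 10.48 and 10.67 with pentachloronitrobenzene, against 10.89, 10.34 and 10.55 in the feed control. The groups overlapped, with a relative change of -0.21 ± 0.12 (adjusted p = 0.734). Cyp2c39, known in the mouse as a retinoic acid hydroxylase, gave 10.37, 10.37 and 10.60, against 10.67, 9.97 and 10.05 in the feed control. These groups overlapped as well, and the relative change was 0.07 ± 0.16 (adjusted p = 0.312).

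**Figure D2:**
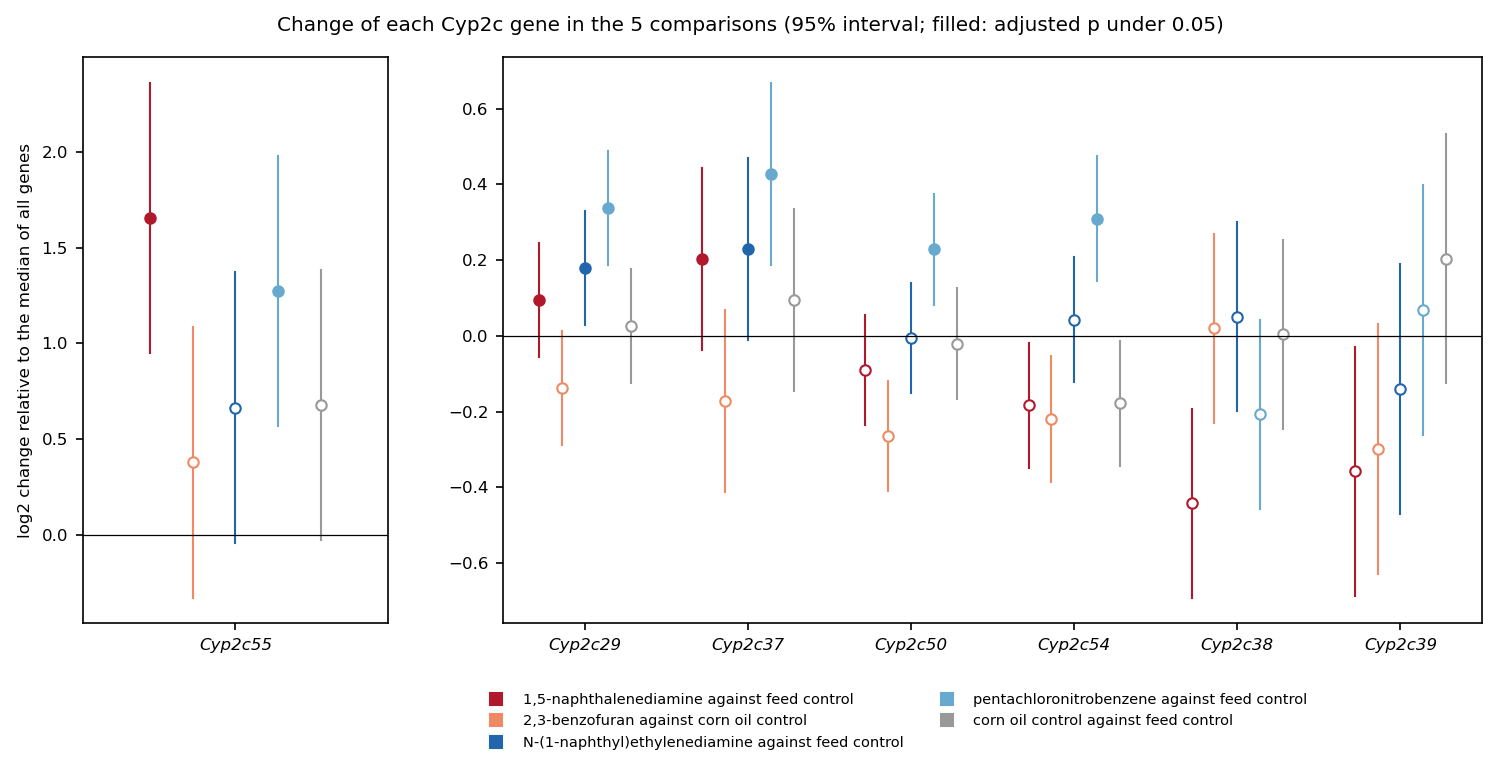
Log2 change relative to the median of all genes (y axis, with its 95% interval) of each Cyp2c gene (x axis) in 5 comparisons. Filled points have an adjusted p under 0.05 on the deposited scale. Pentachloronitrobenzene has 5 filled points, 1,5-naphthalenediamine 3, N-(1-naphthyl)ethylenediamine 2, and 2,3-benzofuran and corn oil none.

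With 1,5-naphthalenediamine, an aromatic diamine, the members did not move together. Cyp2c55 rose on every scale, Cyp2c29 and Cyp2c37 rose on the deposited scale but were not called after quantile normalization or centring, and Cyp2c38 was called lower on those 2 scales but, with all arrays, not on the deposited one. On the deposited scale 3 of 7 members were called higher and 0 lower, where 31.5% of all tested genes were called higher and 8.41% lower, so the share of members is near the background. After quantile normalization 1 member was called higher (Cyp2c55) and 1 lower (Cyp2c38), where 12.2% of genes were called higher and 12.1% lower. After centring the balance turned, with 1 higher (Cyp2c55) and 3 lower (Cyp2c38, Cyp2c39 and Cyp2c54). The median relative change of the 7 members was -0.09. For the 201 genes with a mean signal over 12 the median change was 0.11 on the deposited scale, against 0.18 for all genes.

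Cyp2c55 gave 7.90, 8.02 and 8.63 in 1,5-naphthalenediamine livers, against 6.50, 6.01 and 6.54 in feed control livers. Every treated liver lay more than 1 log2 unit above every control. Relative to all genes the change was 1.66 ± 0.34, or 3.15-fold (adjusted p = 0.000696, and 0.00455 after quantile normalization). With each array of these groups left out in turn the adjusted p was 0.00127 to 0.00459.

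Cyp2c29 gave 12.95, 13.05 and 13.04 with 1,5-naphthalenediamine, against 12.79, 12.72 and 12.72 in the feed control. The groups did not overlap, yet the change relative to all genes was 0.09 ± 0.07 (adjusted p = 0.00746, but 0.268 after quantile normalization and 0.894 after centring). Cyp2c37 gave 11.72, 11.73 and 12.08 with 1,5-naphthalenediamine, against 11.68, 11.25 and 11.46 in the feed control. The treated livers again stood above the controls, by little for mice 2 and 4, and the relative change was 0.20 ± 0.11 (adjusted p = 0.0149, but 0.25 after quantile normalization). That call was lost without 1,5-naphthalenediamine mouse 5 or without feed control mouse 28, with an adjusted p of up to 0.0849.

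Cyp2c38 gave 10.14, 10.35 and 10.50 with 1,5-naphthalenediamine, against 10.89, 10.34 and 10.55 in the feed control. The groups overlapped, and feed control mouse 27 was the highest of the 6. The relative change was -0.44 ± 0.12 (adjusted p = 0.0801 on the deposited scale, 0.00859 after quantile normalization and 0.00492 after centring). On the deposited scale it was called lower without 1,5-naphthalenediamine mouse 5 (adjusted p = 0.0438) or without feed control mouse 28 (0.0152). Cyp2c39 gave 10.09, 9.92 and 10.14 with 1,5-naphthalenediamine, against 10.67, 9.97 and 10.05 in the feed control. Here too mouse 27 was highest and the groups overlapped, with a relative change of -0.36 ± 0.16 (adjusted p = 0.36, and 0.0435 after centring).

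Cyp2c50 gave 12.91, 12.87 and 13.01 with 1,5-naphthalenediamine, against 12.96, 12.85 and 12.72 in the feed control, with a relative change of -0.09 ± 0.07 (adjusted p = 0.334). Cyp2c54 gave 12.34, 12.01 and 12.24 with 1,5-naphthalenediamine, against 12.24, 12.20 and 12.17 in the feed control, with a relative change of -0.18 ± 0.08 (adjusted p = 0.943, and 0.0294 after centring). Both overlapped their controls. Among the markers measured beside these genes, 2 of 7 Kupffer cell and macrophage genes (Vsig4 and Csf1r) were lower with 1,5-naphthalenediamine, and 4 after quantile normalization. Of all tested genes 8.41% and 12.1% were lower on these scales. The mean signal of the 7 was 7.24 to 7.81 in 1,5-naphthalenediamine livers, against 7.39 to 7.93 in feed control livers. Of 4 tested hepatocyte markers 1 was called lower and 0 higher on both scales. The part of either marker set in the Cyp2c values was not tested.

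With 2,3-benzofuran, a furan fused to a benzene ring, no member was called by limma on the deposited scale (0 of 7, where 32.3% of all tested genes were called). Only Cyp2c50 had an unadjusted p under 0.05. After quantile normalization 2 members were called, both lower, where 10.7% of genes were called lower. These were Cyp2c50 and Cyp2c54, and centring of the arrays added Cyp2c29. The median relative change of the 7 members was -0.17. On the deposited scale the 201 genes with a mean signal over 12 had a median change of 0.02, against 0.11 for all genes. Relative changes of Cyp2c29, Cyp2c50 and Cyp2c54, which lie in that range, therefore look lower than against genes of their own level.

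Cyp2c50 gave 12.65, 12.82 and 12.66 in 2,3-benzofuran livers, against 12.83, 12.85 and 12.91 in corn oil control livers. All 3 treated livers were below all 3 controls, mouse 8 by little. Its relative change was -0.26 ± 0.07 (adjusted p = 0.0952 on the deposited scale, 0.00228 after quantile normalization and 0.00177 after centring). Cyp2c54 gave 11.90, 12.01 and 11.95 with 2,3-benzofuran, against 12.05, 12.08 and 12.06 in the corn oil control. Again no treated liver reached the lowest control, and the relative change was -0.22 ± 0.08 (adjusted p = 0.294 on the deposited scale, 0.0382 after quantile normalization and 0.0138 after centring).

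Cyp2c29 gave 12.70, 12.95 and 12.69 with 2,3-benzofuran, against 12.72, 12.87 and 12.84 in the corn oil control. Mice 6 and 10 were below the controls and mouse 8 above them, with a relative change of -0.14 ± 0.07 (adjusted p = 0.782, and 0.0375 after centring). Mice 6 and 10 are also the ones with high 18S signal. Without the 5 arrays of high 18S signal, which leaves mouse 8 alone in its group, no member was called on the deposited scale or after quantile normalization. Cyp2c37, Cyp2c38, Cyp2c39 and Cyp2c55 overlapped their controls, with relative changes of -0.17 ± 0.11, 0.02 ± 0.12, -0.30 ± 0.16 and 0.38 ± 0.34. For Cyp2c55 the treated livers spread over more than 1 log2 unit, with 7.36, 8.21 and 7.10, against 6.91, 7.00 and 7.29 in the corn oil control. In the same livers 3 of 7 Kupffer cell and macrophage genes (Clec4f, Vsig4 and Csf1r) were lower, and 5 after quantile normalization. Of all tested genes 7.58% and 10.7% were lower on these scales. The mean signal of the 7 was 7.39 to 7.77 with 2,3-benzofuran, against 7.79 to 8.16 in the corn oil control. Of 4 tested hepatocyte markers 0 were called, and 1 was higher after quantile normalization. The part of either marker set in the Cyp2c values was not tested.

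With N-(1-naphthyl)ethylenediamine, a naphthylamine used as a colour reagent, Cyp2c29 and Cyp2c37 rose on the deposited scale but not after quantile normalization or centring. The count was 2 of 7 higher and 0 lower, where 24.7% of all tested genes were called higher and 4.37% lower, a share near the background. After quantile normalization limma called 0, where 14.4% of genes were called, and after centring it also called 0. The median relative change of the 7 members was 0.05.

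Cyp2c29 gave 13.02, 13.10 and 13.11 in N-(1-naphthyl)ethylenediamine livers, against 12.79, 12.72 and 12.72 in feed control livers. The groups did not overlap, and the relative change was 0.18 ± 0.07 (adjusted p = 0.00374, and 0.0626 after quantile normalization). Cyp2c37 gave 11.99, 11.62 and 11.94 with N-(1-naphthyl)ethylenediamine, against 11.68, 11.25 and 11.46 in the feed control. Mouse 14 lay inside the range of the controls, and the relative change was 0.23 ± 0.11 (adjusted p = 0.02, and 0.274 after quantile normalization). This call was lost in 4 of the 6 fits that left out 1 array, without N-(1-naphthyl)ethylenediamine mouse 12 or 15 or feed control mouse 28 or 29 (adjusted p up to 0.0984), and in 11 of 15 alternatives (up to 0.602). Cyp2c54 gave 12.27, 12.49 and 12.44, against 12.24, 12.20 and 12.17 in the feed control, apart but not called (relative change 0.04 ± 0.08, adjusted p = 0.0657). Cyp2c55 gave 6.79, 7.16 and 7.56 with N-(1-naphthyl)ethylenediamine, all above the 6.50, 6.01 and 6.54 of the feed control, and was not called either (relative change 0.66 ± 0.34, adjusted p = 0.0739). Cyp2c38, Cyp2c39 and Cyp2c50 overlapped the controls, with relative changes of 0.05 ± 0.12, -0.14 ± 0.16 and -0.01 ± 0.07.

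The N-(1-naphthyl)ethylenediamine arrays differed from the feed control in more than the chemical. Their RNA integrity number was 7.83 ± 0.23, against 8.9 ± 0.17 in the feed control (SD, n = 3 each), and their clock index did not overlap that of the feed control. With either measure as a covariate no member was called (adjusted p for Cyp2c29 of 0.0763 with the RNA integrity number and 0.109 with the clock index). Without the 5 arrays of high 18S signal, which leaves 1 mouse in this group, none was called either. With the beta-actin measure of RNA quality as a covariate both calls were lost and Cyp2c54 was called (adjusted p = 0.0439). Fitted with only the groups compared, Cyp2c37 was lost and Cyp2c55 was called (adjusted p = 0.0294). With single arrays left out the count was 1 to 4, and it was 4 without feed control mouse 27.

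The corn oil control was set against the feed control to show the difference between the 2 routes without a chemical. No member was called by limma (0 of 7, where 0.123% of all tested genes were called), and again 0 after quantile normalization, where 0.0657% were. Only Cyp2c55 had an unadjusted p under 0.05. It gave 6.91, 7.00 and 7.29 in corn oil livers, against 6.50, 6.01 and 6.54 in feed livers, and the groups did not overlap. The relative change was 0.68 ± 0.34 (adjusted p = 0.516), next to 0.66 for N-(1-naphthyl)ethylenediamine against the feed control. The 6 other members had relative changes between -0.18 for Cyp2c54 and 0.20 for Cyp2c39. For Cyp2c54 the 2 controls did not overlap either. It gave 12.05, 12.08 and 12.06 in corn oil livers, against 12.24, 12.20 and 12.17 in feed livers.

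Across the 6 groups the members did not share 1 order of levels. Mean log2 signals of Cyp2c29 were 13.23 ± 0.08 (SD, n = 3) with pentachloronitrobenzene, 13.08 ± 0.05 with N-(1-naphthyl)ethylenediamine, 13.01 ± 0.06 with 1,5-naphthalenediamine, 12.78 ± 0.14 with 2,3-benzofuran, 12.81 ± 0.08 in the corn oil control and 12.74 ± 0.04 in the feed control. The ranges of the last 3 overlapped, and so did those of N-(1-naphthyl)ethylenediamine and 1,5-naphthalenediamine. Cyp2c37, Cyp2c50 and Cyp2c54 were also highest with pentachloronitrobenzene, at 12.04 ± 0.04, 13.22 ± 0.03 and 12.66 ± 0.07, and N-(1-naphthyl)ethylenediamine was next, at 11.85 ± 0.20, 12.99 ± 0.06 and 12.40 ± 0.12. Cyp2c50 and Cyp2c54 were lowest with 2,3-benzofuran, at 12.71 ± 0.10 and 11.95 ± 0.05, while Cyp2c37 was lowest in the feed control, at 11.47 ± 0.22.

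Cyp2c38 and Cyp2c39 had their lowest mean with 1,5-naphthalenediamine, at 10.33 ± 0.18 and 10.05 ± 0.12. Cyp2c38 was highest with N-(1-naphthyl)ethylenediamine, at 10.80 ± 0.06, next to 2,3-benzofuran at 10.77 ± 0.13, and the ranges of these 2 groups overlapped. For Cyp2c39 the highest mean was that of the corn oil control, at 10.47 ± 0.19, and the range of the feed control, 9.97 to 10.67, overlapped that of every other group. Cyp2c55 was highest with 1,5-naphthalenediamine, at 8.18 ± 0.39, then with pentachloronitrobenzene, at 7.77 ± 0.84, and lowest in the feed control, at 6.35 ± 0.29. Neighbouring groups in its order overlapped, except the corn oil and feed controls.

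Over the 18 arrays Cyp2c50 and Cyp2c54 were the pair with the highest correlation (Pearson r = 0.91, and 0.52 after the group means were removed). Cyp2c29 and Cyp2c37 had r = 0.83 over all arrays but 0.23 within groups. Cyp2c38 and Cyp2c39 had r = 0.56 over all arrays and 0.74 within groups. These are descriptions over arrays that share groups and array-wide shifts.

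**Figure D3:**
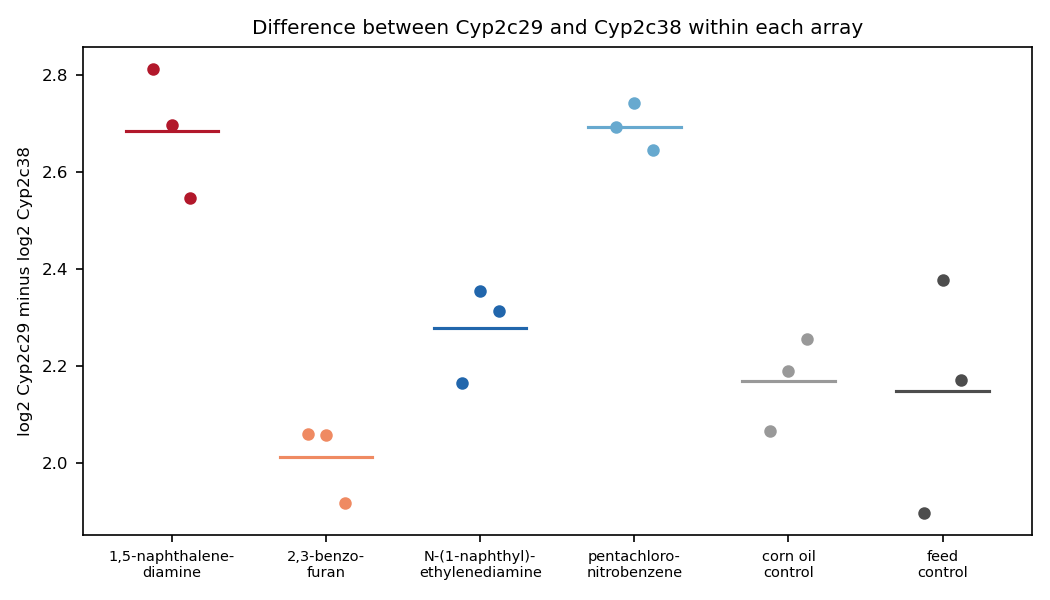
Difference of the log2 signals of Cyp2c29 and Cyp2c38 within each array (y axis, which does not start at 0), by group (x axis), with 1 point per mouse and a line at the group mean. The difference is 2.69 ± 0.13 with 1,5-naphthalenediamine and 2.69 ± 0.05 with pentachloronitrobenzene, above the 2.15 ± 0.24 of the feed control.

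Cyp2c29 and Cyp2c38, whose promoter windows are close copies, changed unequally, as seen in their difference within each array. A shift equal for all genes of an array cancels in this difference, but one that depends on signal level does not. With 1,5-naphthalenediamine the median change was 0.23 for genes with mean signals of 9 to 11, where Cyp2c38 lies. It was 0.11 for genes over 12, where Cyp2c29 lies. Within each array the log2 signal of Cyp2c29 exceeded that of Cyp2c38 by 2.69 ± 0.13 (SD, n = 3) with 1,5-naphthalenediamine, 2.28 ± 0.10 with N-(1-naphthyl)ethylenediamine and 2.69 ± 0.05 with pentachloronitrobenzene, against 2.15 ± 0.24 in the feed control. It was 2.01 ± 0.08 with 2,3-benzofuran, against 2.17 ± 0.10 in the corn oil control. The size of the difference in 1 group has no meaning between probe sets, and only its change from group to group is read. This pair was chosen after its values were seen, and no test was made of it.

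The 4 chemicals were compared with each other over 6 pairs and 7 members, which makes 42 tests, each adjusted over all 12169 genes. Only 1,5-naphthalenediamine and N-(1-naphthyl)ethylenediamine were given at the same dose and by the same route. Both carry a naphthalene ring. The first has a further amino group on the ring, and the other an aminoethyl chain on its ring nitrogen. Of the 7 members 1 differed, Cyp2c38, which was lower with 1,5-naphthalenediamine, where 5.47% of all tested genes were called.

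Cyp2c38 gave 10.14, 10.35 and 10.50 with 1,5-naphthalenediamine, against 10.86, 10.74 and 10.80 with N-(1-naphthyl)ethylenediamine. The groups did not overlap, and the relative difference was -0.47 ± 0.12, with a 95% interval of -0.72 to -0.22 (adjusted p = 0.0253, and 0.0193 after quantile normalization). This call was lost in 5 of the 6 fits that left out 1 array of the pair, with an adjusted p of up to 0.116, and it was 0.325 with the clock index as a covariate. Cyp2c55 gave 7.90, 8.02 and 8.63 with 1,5-naphthalenediamine, against 6.79, 7.16 and 7.56 with N-(1-naphthyl)ethylenediamine. These groups did not overlap either, and the relative difference was 1.01 ± 0.34 with an interval of 0.31 to 1.72, which was not called after adjustment (adjusted p = 0.0887). For the 5 other members the intervals were -0.21 to 0.09 for Cyp2c29, -0.24 to 0.24 for Cyp2c37, -0.52 to 0.14 for Cyp2c39, -0.21 to 0.09 for Cyp2c50 and -0.37 to -0.04 for Cyp2c54.

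**Figure D4:**
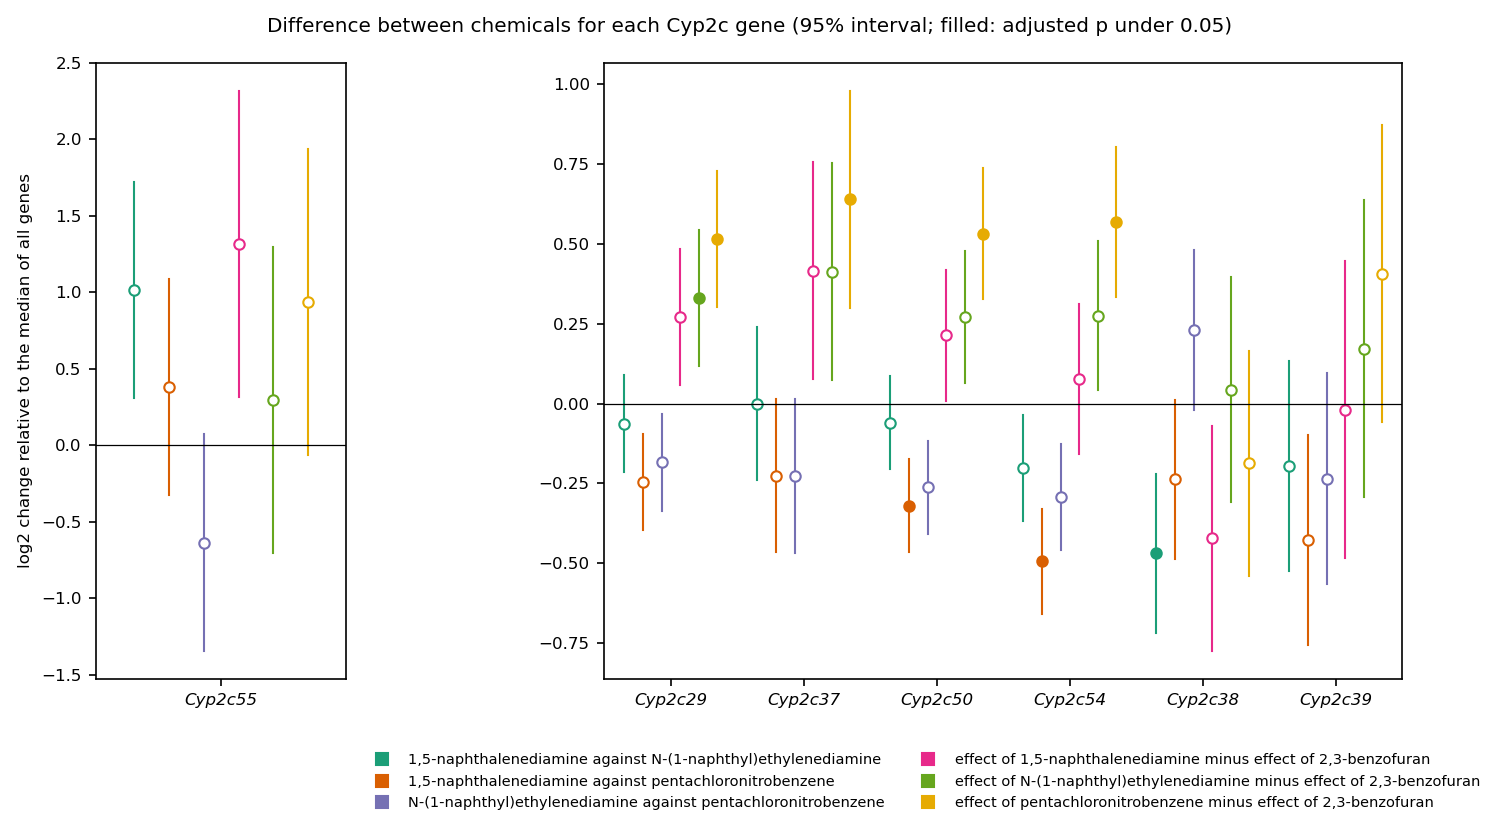
Log2 difference relative to the median of all genes (y axis, with its 95% interval) of the 7 Cyp2c genes (x axis) in the 6 pairs of chemicals, coloured by pair, with a wider axis range for Cyp2c55. Filled points have an adjusted p under 0.05 on the deposited scale, which are 8 of 42, and 4 of these lie in the pair of pentachloronitrobenzene with 2,3-benzofuran.

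The other pairs differ in dose, and those with 2,3-benzofuran also in route, so that differences in the chemicals and in the dosing cannot be told apart. Cyp2c54 was lower with 1,5-naphthalenediamine than with pentachloronitrobenzene, with a relative difference of -0.49 ± 0.08 (adjusted p = 0.0015, where 4.03% of all tested genes were called). The livers gave 12.34, 12.01 and 12.24 with 1,5-naphthalenediamine, against 12.73, 12.60 and 12.65 with pentachloronitrobenzene. The groups were apart, and this call held in each of the 15 alternatives run and with each array left out. For Cyp2c50 the same pair had a relative difference of -0.32 ± 0.07 (adjusted p = 0.0208). This call was lost in 5 of the 6 fits that left out 1 array. After quantile normalization 3 of the 7 members were called lower in this pair. No member was called between N-(1-naphthyl)ethylenediamine and pentachloronitrobenzene by limma, where 2.69% of all tested genes were, and 4 had an unadjusted p under 0.05. Among these Cyp2c54 gave 12.27, 12.49 and 12.44 with N-(1-naphthyl)ethylenediamine, against 12.73, 12.60 and 12.65 with pentachloronitrobenzene (relative difference -0.29 ± 0.08, adjusted p = 0.0883). After quantile normalization 1 was called there, Cyp2c50 (adjusted p = 0.0107).

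Against 2,3-benzofuran the changes of the chemicals, each from its own control, were compared. The effect of pentachloronitrobenzene exceeded that of 2,3-benzofuran for 4 of 7 members, where 2.89% of all tested genes were called. The differences between the 2 effects were 0.52 ± 0.10 for Cyp2c29, 0.64 ± 0.16 for Cyp2c37, 0.53 ± 0.10 for Cyp2c50 and 0.57 ± 0.11 for Cyp2c54 (adjusted p = 0.00672, 0.0381, 0.00424 and 0.00654). Cyp2c37 was no longer called after quantile normalization (adjusted p = 0.061) or after centring. Cyp2c50 and Cyp2c54 lost their calls in 1 of 15 alternatives, the one without the 5 arrays of high 18S signal (adjusted p = 0.238 and 0.0831), which leaves 1 mouse with 2,3-benzofuran. The call of Cyp2c29 was lost in 4 of 15, with the RNA integrity number, with the clock index and in both fits without the 5 arrays (adjusted p up to 0.352). That of Cyp2c37 was lost in 9 of 15 (up to 0.339) and in 11 of the 12 fits that left out 1 array, the exception being feed control mouse 27. On the deposited scale the effect of N-(1-naphthyl)ethylenediamine exceeded that of 2,3-benzofuran for Cyp2c29 alone, by 0.33 ± 0.10 (adjusted p = 0.0422, where 5.59% of all tested genes were called). After quantile normalization Cyp2c29 was not called (adjusted p = 0.0691), and 1 other member was called higher in its place. The Cyp2c29 call was lost in 12 of 15 alternatives (adjusted p up to 0.812) and in 8 of the 12 fits that left out 1 array (up to 0.118). Between the effects of 1,5-naphthalenediamine and 2,3-benzofuran limma called 0 of 7 on the deposited scale and 0 after quantile normalization, where 0.961% of genes were called on the deposited scale, and 5 members had an unadjusted p under 0.05.

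Set by class, the effects of the 2 positive liver carcinogens were lower than those of the 2 negative chemicals for 3 of 7 members, where 7.2% of all tested genes were called. The differences were -0.29 ± 0.06 for Cyp2c29, -0.30 ± 0.06 for Cyp2c50 and -0.39 ± 0.07 for Cyp2c54 (adjusted p = 0.00693, 0.00457 and 0.00165). The pair contrasts with pentachloronitrobenzene above use the same livers. With 2 chemicals in a class, what belongs to the class and what to 1 chemical cannot be told apart. Of the 5 arrays with high 18S signal 3 are in the positive class, and without these 5 the adjusted p values were 0.174, 0.142 and 0.0504. With the RNA integrity number as a covariate they were 0.177, 0.101 and 0.0613, and with the clock index 0.334, 0.0589 and 0.0212. Cyp2c55 did not follow the class, with a difference of 0.04 ± 0.29 (adjusted p = 0.964).

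Outside the 7 members, 3 other Cyp2c genes could be tested of the 4 on the array, and none rose with any chemical. Cyp2c68 was lower with 1,5-naphthalenediamine, with a relative change of -0.71 ± 0.13 (adjusted p = 0.00528). Cyp2c23, an epoxygenase of arachidonic acid, was lower with 2,3-benzofuran, with a relative change of -0.73 ± 0.13 (adjusted p = 0.00145). So was Cyp2c70, which makes muricholic acids in mouse liver, with -0.40 ± 0.10 (adjusted p = 0.0427). None of the 3 was called with pentachloronitrobenzene. Each of the 3 calls held after quantile normalization (adjusted p = 0.00186, 0.000148 and 0.0113). On that scale Cyp2c23 and Cyp2c70 were also called lower with 1,5-naphthalenediamine (adjusted p = 0.0218 and 0.0372), and Cyp2c68 with N-(1-naphthyl)ethylenediamine (adjusted p = 0.0323).

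Genes listed as targets of the receptors CAR and PXR were counted beside the family. Whether other factors moved the listed genes was not tested, so the counts do not measure the activity of these receptors. For comparison, 31.5% of all tested genes were called higher with 1,5-naphthalenediamine, 24.8% with 2,3-benzofuran, 24.7% with N-(1-naphthyl)ethylenediamine and 14.6% with pentachloronitrobenzene, and 8.41%, 7.58%, 4.37% and 3.87% lower. After quantile normalization, with the chemicals in the same order, 12.2%, 12.6%, 7.94% and 3.01% were called higher and 12.1%, 10.7%, 6.5% and 4.32% lower. Of 14 tested targets outside the Cyp2c family, 9 were called higher with 1,5-naphthalenediamine, 6 with 2,3-benzofuran, 7 with N-(1-naphthyl)ethylenediamine, 8 with pentachloronitrobenzene and 0 with corn oil, and none was called lower on the deposited scale. After quantile normalization 8, 6, 3 and 6 were higher with the 4 chemicals, and 1 was lower with 2,3-benzofuran (Slco1a4, a bile salt and drug transporter). Their median relative change was 0.64 with 1,5-naphthalenediamine, 0.31 with 2,3-benzofuran, 0.16 with N-(1-naphthyl)ethylenediamine, 0.35 with pentachloronitrobenzene and 0.12 with corn oil. Ephx1, the microsomal epoxide hydrolase, changed by 1.64 ± 0.15 with 1,5-naphthalenediamine, 2.29 ± 0.15 with 2,3-benzofuran, 0.11 ± 0.15 with N-(1-naphthyl)ethylenediamine and 0.71 ± 0.15 with pentachloronitrobenzene, and the third of these was not called (adjusted p = 0.17). Cyp2b10, the P450 most often used as a readout of CAR in mouse liver, changed by 1.63 ± 0.37 with 1,5-naphthalenediamine, 0.38 ± 0.37 with 2,3-benzofuran, 1.08 ± 0.37 with N-(1-naphthyl)ethylenediamine and 1.87 ± 0.37 with pentachloronitrobenzene. It was not called with 2,3-benzofuran (adjusted p = 0.317), nor with N-(1-naphthyl)ethylenediamine after quantile normalization (adjusted p = 0.0737). Gstm1, a glutathione transferase, changed by 1.20 ± 0.10 with 1,5-naphthalenediamine, 1.30 ± 0.10 with 2,3-benzofuran, 0.21 ± 0.10 with N-(1-naphthyl)ethylenediamine and 0.65 ± 0.10 with pentachloronitrobenzene. Its call with N-(1-naphthyl)ethylenediamine was lost after quantile normalization (adjusted p = 0.187). With 2,3-benzofuran, then, Ephx1 and Gstm1 were higher in livers where no Cyp2c member was called higher.

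**Figure D5:**
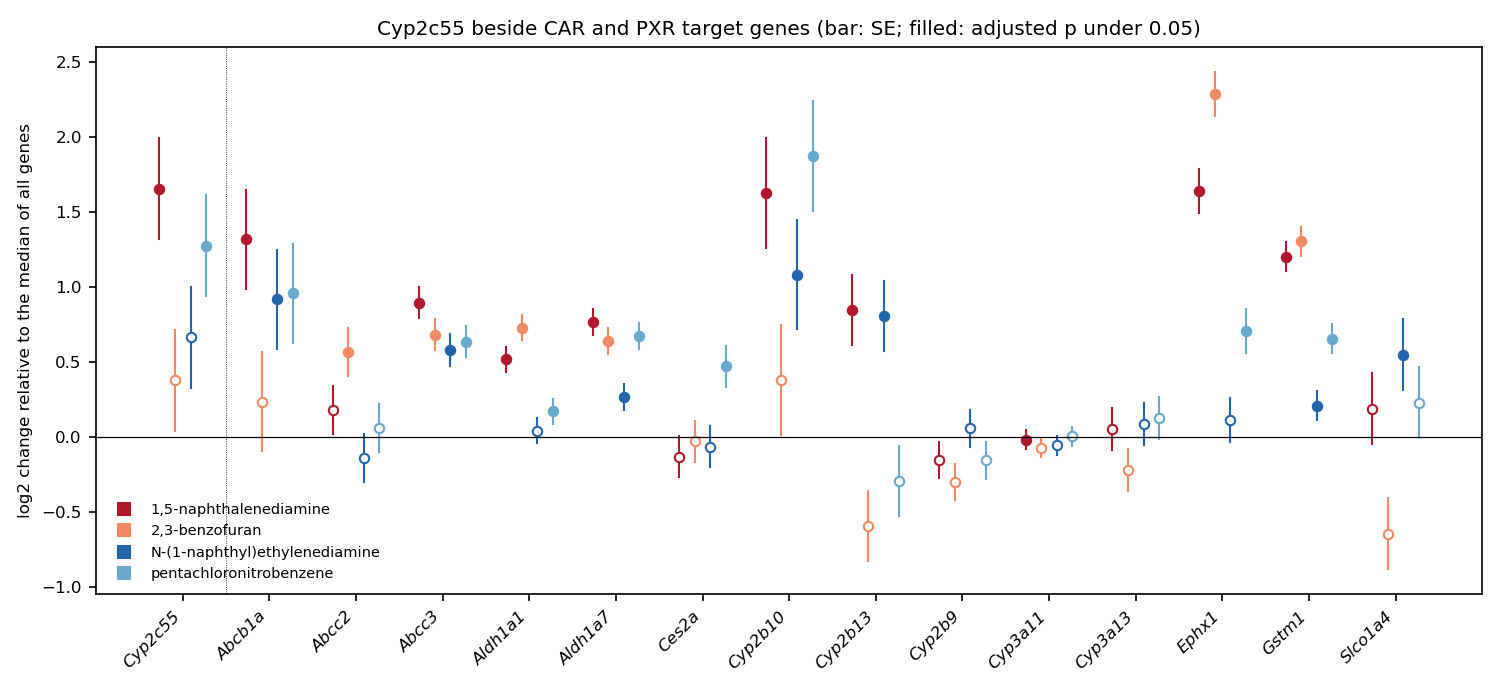
Log2 change relative to the median of all genes (y axis, with bars of 1 SE) of Cyp2c55 and of the 14 tested CAR and PXR target genes outside the Cyp2c family (x axis), for the 4 chemicals. Filled points have an adjusted p under 0.05 on the deposited scale. Ephx1 stands at 1.64 with 1,5-naphthalenediamine and 2.29 with 2,3-benzofuran, while Cyp2c55 is at 1.66 and 0.38 with the same 2 chemicals and is not called with the second.

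Among 14 tested nuclear receptors and transcription factors of P450 genes, 5 were called higher with 1,5-naphthalenediamine, 1 with 2,3-benzofuran, 6 with N-(1-naphthyl)ethylenediamine and 2 with pentachloronitrobenzene, and none lower on the deposited scale. After quantile normalization 2, 0, 3 and 1 were higher with the 4 chemicals in that order, and 3 were lower with 1,5-naphthalenediamine and 2 with 2,3-benzofuran. The 5 of 14 with 1,5-naphthalenediamine is near the share over all genes. Nr1i3, which encodes CAR, was called in all 4 comparisons, with relative changes of 0.56 ± 0.11 with 1,5-naphthalenediamine, 0.21 ± 0.11 with 2,3-benzofuran, 0.43 ± 0.11 with N-(1-naphthyl)ethylenediamine and 0.48 ± 0.11 with pentachloronitrobenzene, and the call with 2,3-benzofuran was lost after quantile normalization (adjusted p = 0.238). Of 7 tested genes for electron donors and heme supply, 5 were called higher with 1,5-naphthalenediamine, 3 with 2,3-benzofuran, 4 with N-(1-naphthyl)ethylenediamine and 2 with pentachloronitrobenzene. After quantile normalization these counts were 4, 3, 1 and 0, and 1 gene was lower with 2,3-benzofuran. Cyb5r3, a cytochrome b5 reductase, changed by 0.44 ± 0.08 with 1,5-naphthalenediamine and 0.34 ± 0.08 with N-(1-naphthyl)ethylenediamine. Alas1, the first enzyme of heme synthesis, changed by 1.53 ± 0.35 with 2,3-benzofuran (adjusted p = 0.00222).

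Of 9 tested genes for other fatty acid epoxygenases, omega-hydroxylases and epoxide hydrolases, 3 were called higher and 1 lower with 1,5-naphthalenediamine, 3 and 2 with 2,3-benzofuran, 1 and 1 with N-(1-naphthyl)ethylenediamine, and 1 and 1 with pentachloronitrobenzene. After quantile normalization they were 3 and 3, 2 and 3, 0 and 2, and 1 and 1. Cyp4a12a, an arachidonic acid omega-hydroxylase predominant in male mice, was higher with 2,3-benzofuran by 4.48 ± 0.17 in these female livers (adjusted p = 3.17e-12). Cyp4f14, a fatty acid hydroxylase, was lower with 1,5-naphthalenediamine and with 2,3-benzofuran, with relative changes of -0.71 ± 0.13 and -0.76 ± 0.13. Cyp4a14, a target of the receptor PPAR alpha, changed by -1.28 ± 0.28 with pentachloronitrobenzene (adjusted p = 0.0154). Of 10 pericentral hepatocyte genes, 2 were called higher and 1 lower with 1,5-naphthalenediamine, 1 lower with 2,3-benzofuran, 2 higher with N-(1-naphthyl)ethylenediamine and 3 higher with pentachloronitrobenzene. After quantile normalization 2 were higher and 4 lower with 1,5-naphthalenediamine, 3 lower with 2,3-benzofuran, and 1 higher with each of the other chemicals. Of 7 tested periportal genes, 4 were called higher with 1,5-naphthalenediamine, 1 higher and 2 lower with 2,3-benzofuran, and 1 higher with N-(1-naphthyl)ethylenediamine. None was called with pentachloronitrobenzene. After quantile normalization 1 was higher with 1,5-naphthalenediamine, and 1 higher and 2 lower with 2,3-benzofuran. Shares over all genes are those given with the CAR and PXR targets. Cyp1a2, a P450 induced through the aryl hydrocarbon receptor, changed by 1.39 ± 0.13 with 1,5-naphthalenediamine, 0.01 ± 0.13 with 2,3-benzofuran, 1.26 ± 0.13 with N-(1-naphthyl)ethylenediamine and 0.86 ± 0.13 with pentachloronitrobenzene, and only the value with 2,3-benzofuran was not called (adjusted p = 0.489).

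The genes outside the family whose log2 signals were most like those of a member were ranked by Pearson r over the 18 arrays, where arrays share groups and array-wide shifts. For Cyp2c37 the first was Cyp2b10, with r = 0.84, then Aass at 0.83 and Dag1 at 0.81. For Cyp2c50 they were Usp18 and Rsad2, both at 0.84, and Ifit3 at 0.82, and for Cyp2c54 Usp18 and Rsad2 at 0.81 and Iigp1 at 0.80, which are genes induced by interferons. Cyp2c29 was most like Cdkn2aip at 0.91, Abcg5 at 0.82 and Serpina1b at 0.80. Cyp2c55 was most like Gstt3 at 0.84, Cox11 at 0.83 and Rsrc2 at 0.82. Cyp2c38 had the lowest leading values, with Pomt2 at 0.78, 1110002L01Rik at 0.74 and Mlxipl at 0.72. Cyp2c39 was most like Tmem38b at 0.81, Masp2 at 0.79 and Abcd2 at 0.79. Cdkn2aip and 1110002L01Rik had mean signals of 4.76 and 4.46, not far above the array medians of 4.25 to 4.35. These r values were picked as the highest over all tested genes outside the family, and no test was made of them.

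Cyp2c29 and Cyp2c50 lie near the top of the signal range, where array maxima were 14.5 to 14.7, and no file used here tells whether their probes were saturated. Each group holds 3 mice, and the animals were not matched between groups.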

How the data were processed

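Liver RNA of 18 mice was measured, 1 array each, and samples were grouped by the treatment in their labels. The deposited values are log2 signals per probe set. How the authors corrected, normalized and summarised them is not given in the sources used here. Array medians were nearly equal but upper quartiles were not, so calls were repeated after quantile normalization and after centring each array on the median of the tested genes.

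Of 45101 probe sets 64 were controls, 34958 named 1 gene and 932 several. Probe sets above their array's median in at least 3 of 18 arrays were kept (24338), and each gene was read from its probe set of highest mean signal, which left 12169 genes. The 6 group means were estimated in limma 3.58.1 under R 4.3.3 from all arrays together (12 residual degrees of freedom, variance trend), and p-values were adjusted over all genes. The pipeline was tested on simulated data. Intervals cover 95%. Their width rests on a moderated variance per gene estimated from all 18 arrays, not on the spread of the compared groups alone. The labels do not say whether animals were housed or processed together, and p-values measure the spread between these mice. All members were named. From each gene list at most 3 called genes with the largest moderated statistic were named, and for each member the 3 genes most like it. Cyp2b10, Gstm1, Ephx1, Cyp1a2, Nr1i3, Cyb5r3 and Cyp4f14 are given for further chemicals beside those in which the rule named them. Members and lists were chosen with earlier results of these data known. Alternatives were other scalings, no filter, only the groups compared, array weights, no variance trend, a stricter threshold, covariates for RNA quality and clock genes, and arrays left out.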

Additional observations from a re-analysis of the deposited data

Results flagged for a closer look

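In 8 cases the change of a member differed between 2 chemicals by the test of the difference itself. The differences here are on the deposited log2 scale, with limma's adjusted p. Cyp2c38 differed by -0.47 (adjusted p = 0.0253) between 1,5-naphthalenediamine and N-(1-naphthyl)ethylenediamine. Between 1,5-naphthalenediamine and pentachloronitrobenzene, Cyp2c50 differed by -0.29 (adjusted p = 0.0208) and Cyp2c54 by -0.47 (adjusted p = 0.0015). The effect of N-(1-naphthyl)ethylenediamine on Cyp2c29 exceeded that of 2,3-benzofuran by 0.36 (adjusted p = 0.0422). The effect of pentachloronitrobenzene exceeded that of 2,3-benzofuran by 0.52 for Cyp2c29 (adjusted p = 0.00672), 0.64 for Cyp2c37 (adjusted p = 0.0381), 0.53 for Cyp2c50 (adjusted p = 0.00424) and 0.57 for Cyp2c54 (adjusted p = 0.00654). Over 15 alternatives the adjusted p of Cyp2c54 between 1,5-naphthalenediamine and pentachloronitrobenzene was 0.000485 to 0.0352, while that of Cyp2c29 between the effects of N-(1-naphthyl)ethylenediamine and 2,3-benzofuran was 0.0348 to 0.812. Outliers within a group were not tested, since each group has 3 mice.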

How the results depend on the processing

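No change of a single member turned direction while called, under any alternative run. With pentachloronitrobenzene the 5 calls became 2 after centring, 3 with only the groups of the comparison and 3 after quantile normalization without the 5 arrays of high 18S signal, and with single arrays left out the count was 5 to 6. With 1,5-naphthalenediamine the 3 calls became 1 with only the groups of the comparison and 1 after quantile normalization without the 5 arrays. They became 1 higher and 1 lower after quantile normalization and 1 higher and 3 lower after centring. With single arrays left out the count was 3, but without 1,5-naphthalenediamine mouse 5 or feed control mouse 28 it was 2 higher and 1 lower, Cyp2c38 in place of Cyp2c37. With 2,3-benzofuran the count of 0 became 2 after quantile normalization, 3 after centring, 1 with array weights and 1 after quantile normalization with the clock index, and was 0 to 1 with single arrays left out (1 without 2,3-benzofuran mouse 8). With N-(1-naphthyl)ethylenediamine the 2 calls became 0 after quantile normalization, centring, either covariate for RNA integrity or clock index, without the 5 arrays, and in both combinations of quantile normalization with the clock index or without the 5 arrays. They became 1, Cyp2c29, with array weights or an adjusted p under 0.01. The count was 1 with the beta-actin covariate, but for Cyp2c54, and 2 with only the groups compared, with Cyp2c55 in place of Cyp2c37. It was 1 to 4 with single arrays left out (1 without N-(1-naphthyl)ethylenediamine mouse 15 or feed control mouse 28 or 29, and 4 without feed control mouse 27). The 8 calls over the pairs of chemicals became 5 without the variance trend, 4 with the RNA integrity number, 4 with the clock index, 1 without the 5 arrays, 4 at an adjusted p under 0.01 and 5 after quantile normalization without the 5 arrays, and 5 to 10 with single arrays left out (5 without pentachloronitrobenzene mouse 18, and 10 without feed control mouse 27). The 3 calls between the classes became 0 with the RNA integrity number, 1 with the clock index and 0 without the 5 arrays, and 3 to 5 with single arrays left out (5 without feed control mouse 27). Over the pairs of chemicals, centring lost Cyp2c29 for N-(1-naphthyl)ethylenediamine and Cyp2c37 for pentachloronitrobenzene, each against 2,3-benzofuran. The beta-actin covariate lost that Cyp2c29 call as well. It also lost Cyp2c38 between 1,5-naphthalenediamine and N-(1-naphthyl)ethylenediamine, and Cyp2c50 between 1,5-naphthalenediamine and pentachloronitrobenzene. For corn oil the count was 0 throughout. Without the 5 arrays, fits leave 1 mouse in 2 groups, assumed to vary like the others, which by itself lowers the number of calls. The other causes were not tested. Quantile normalization together with the clock index, or without the 5 arrays, was chosen after seeing the data. No paired analysis was possible because the groups share no animal numbers.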
